A study of Mus musculus with 20 samples.

Results

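The transcripts described here had a higher footpad signal at postnatal day 5 (P5) than at P1 or in adults, in wild-type (WT) and Tabby mice alike. They were 150 microarray probes of 42006. The members were selected on the Cy3 footpad signal in log2, after subtraction of each array's median. A probe had to be well above background on all 4 arrays of P5, to differ between genotypes by less than 0.8 at P5, and to lie at least 1 log2 unit higher at P5 than at P1 and than in adults. 243 probes met these thresholds, and the 150 with the largest score were kept, the score being P5 minus the higher of P1 and adult. The last members inside the limit, Z00056147-1 and Z00025273-1, both had a score of 1.24. The first probes outside it, Z00063157-1 and Z00004601-1, had scores of 1.24 and 1.23. Since P1, P5 and adult Cy3 values chose the members, the peak itself is described below with no test.

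The study profiled dissected footpad skin from WT and Tabby mutant mice, both of strain C57BL6/J per the labels, before birth (E17.5), on 3 days of the first week after birth (P1, P3 and P5) and at P56, called adult. Each of the 10 genotype and stage groups had 2 biological replicates, and no label tells whether a replicate was 1 animal or a pool. Footpad RNA carried Cy3 on all 20 arrays and was hybridised with a Cy5-labelled common reference, which the labels describe in the same way for every array as pooled RNA of cultured mouse cell lines mixed with embryonic stem cell RNA. No dye swap was made. The 4 arrays of a stage shared a slide, on which WT took positions 1 and 2 and Tabby those from 3 on. Hence stage and slide, and likewise genotype and slide position, cannot be told apart. Cy3 was well above background for 64.7% to 72.1% of the probes on an array. In these bulk samples, fewer cells of a type and less RNA per cell cannot be told apart.

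The footpad is the hairless, thick-skinned site of the mouse that carries eccrine sweat glands, whose buds form before birth and whose coil and secretory cells mature during the first days after it. Tabby mice lack functional ectodysplasin, a signalling ligand of the tumour necrosis factor family encoded by Eda, and fail to form these glands, while the epidermis, nerves, vessels, muscle and connective tissue of the pad remain. In a common reference design the Cy5 RNA is meant to be the same on every array, so that a probe's Cy5 signal tracks the slide and the hybridisation and not the footpad.

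The deposited files name these probes by identifier and give their 60-base sequences, without gene symbols. The members are therefore shown by sequence, each read 5′ to 3′ from the array files. The 4 members with the largest scores open the set, in lower case throughout.
Z00059711-1: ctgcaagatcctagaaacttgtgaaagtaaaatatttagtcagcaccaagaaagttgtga
Z00053131-1: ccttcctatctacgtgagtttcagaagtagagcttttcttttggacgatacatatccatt
Z00075905-1: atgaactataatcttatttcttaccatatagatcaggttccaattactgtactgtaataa
Z00071783-1: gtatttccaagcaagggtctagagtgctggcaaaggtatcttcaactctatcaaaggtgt

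The next set had the largest P5 peak in the footpad over reference ratio among members called level in the reference. Level means that Cy5 at P5 was less than 0.5 log2 units above the mean of P1 and adult. Z00024453-1 and Z00055102-1 were still called higher in Cy5 at P5. The set was picked after the values were seen. Capitals mark AATAAA, the canonical polyadenylation signal.
Z00064439-1: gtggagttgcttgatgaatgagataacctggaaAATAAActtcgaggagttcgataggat
Z00024453-1: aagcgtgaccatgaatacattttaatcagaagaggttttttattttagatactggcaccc
Z00055102-1: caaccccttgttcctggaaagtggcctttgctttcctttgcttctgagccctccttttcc
Z00074131-1: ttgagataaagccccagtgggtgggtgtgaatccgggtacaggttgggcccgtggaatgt
Z00076555-1: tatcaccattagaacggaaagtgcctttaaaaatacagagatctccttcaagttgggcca

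The last set holds members whose Cy5 reference signal was higher on the P5 slide as well. Capitals mark the longest run of bases that reads along the tandem repeat of CCCTAA, the C-rich strand of the vertebrate telomere repeat. The set was picked for these runs after the values were seen. It holds the 7 members with a run of 9 or more bases, and Z00047820-1 with a run of 8.
Z00003132-1: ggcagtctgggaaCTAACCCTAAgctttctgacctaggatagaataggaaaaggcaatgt
Z00046337-1: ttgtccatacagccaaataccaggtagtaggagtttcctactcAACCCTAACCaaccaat
Z00059533-1: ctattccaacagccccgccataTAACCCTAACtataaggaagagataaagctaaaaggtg
Z00060014-1: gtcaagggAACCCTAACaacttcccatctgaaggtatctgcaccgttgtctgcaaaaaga
Z00029142-1: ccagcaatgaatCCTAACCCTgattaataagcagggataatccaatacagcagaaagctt
Z00028600-1: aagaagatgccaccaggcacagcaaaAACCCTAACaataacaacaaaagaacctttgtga
Z00052201-1: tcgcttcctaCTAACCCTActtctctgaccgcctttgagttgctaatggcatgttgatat
Z00047820-1: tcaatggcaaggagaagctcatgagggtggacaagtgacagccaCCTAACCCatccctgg

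The median Cy3 level of the 150 members, in log2 relative to the array median, was lowest in adults (-0.96) and at P1 (-0.88), intermediate at E17.5 (-0.21) and P3 (0.13), and 1.22 at P5. P1 was well above background on at least 1 array for 140 members, for which P5 stood 1.24 to 4.34 above it. For the 130 measured in adults on at least 1 array, P5 stood 1.24 to 6.13 above adult. The other members, 24 in all, have only a bound at P1, in adults or in both, although their measured dim values entered the score. All 4 arrays of P5 lay above all 8 arrays of P1 and adult for 140 of the 150, against 4.85% of all probes, a contrast that the selection itself used. P5 was the highest of the 5 stages for 120 members, P3 for 20 and E17.5 for 10. The genotype difference at P5, limited by the selection, ran from -0.64 to 0.63 and was within 0.3 for 112 members. Tabby was above WT at P5 for 74 of the 150.

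Z00059711-1 had the largest score, 4.34. Its Cy3 level at P5 was 1.81 and 2.04 in WT and 2.18 and 2.32 in Tabby. At P1 it was -3.55 and -1.85 in WT and -2.09 and -1.53 in Tabby, and in adults -4.49, -3.16, -1.67 and -3.18 in the same order. At P3 all 4 arrays, between 0.50 and 0.98, already lay between the P1 and the P5 arrays. Z00053131-1 came next, with a score of 4.18. Its P5 arrays held 3.63, 3.72, 3.87 and 4.08, its P3 arrays 2.46 to 2.77 and its P1 arrays -1.06 to 0.34. Adult values of Z00053131-1 spread from -4.52 in a WT array to 0.05 in a Tabby array. No stage overlapped with P5 for either probe.

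Z00075905-1 was dim throughout: its P5 arrays lay between -1.53 and -0.99, and its P1 and adult arrays between -5.46 and -4.42. It was well above background on no array of P1 or adult, so its score of 3.43 rests on dim values. On the ratio scale, where an offset of 50 was added to both dyes, the score was 0.60. Z00071783-1 lay between -2.89 and -2.49 at P1 and between 0.01 and 0.56 at P5, and in adults was well above background on no array. For such members only a bound exists: the P5 mean was set against the higher of the lowest well-above-background signal and the dim probe's own. With no dye swap these bounds are open to dye bias. Z00075905-1 was at least 1.40-fold higher at P5 than at P1 and at least 1.51-fold higher than in adults. 10 members had such a bound against P1, between 1.13-fold and 1.41-fold, and none of these bounds reached the 2-fold of the selection. 20 had one against adult, with a median of 1.51-fold, and 6 of them reached 2-fold. Z00071783-1 was at least 2.34-fold higher at P5 than in adults. The largest bound, at least 18.2-fold, belonged to Z00039743-1, with 3.40 to 4.17 at P5, 2.17 to 2.71 at P1 and -4.96 to -4.11 in adults. These are Cy3 values. The Cy5 reference of Z00039743-1 was also higher at P5, by 2.62 ± 0.241 over the mean of P1 and adult (SE, limma, adjusted p = 5.18e-05).

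For 48 of the 150 members, the Cy5 reference was higher on the P5 slide too, by at least 1 log2 unit over the mean of P1 and adult. Only 0.921% of all probes did so. The median Cy5 change was 0.25 over the members, with a range of -0.34 to 3.69, and 0.00 over all probes. A further 13 members had a Cy5 change between 0.5 and 1, and 89 stayed below 0.5. The 89 are called level here, but 17 of them had Cy5 well above background on no array. For those 17, a level Cy5 is only a signal near background. These classes were drawn after the values were seen and receive no test. Cy5 was not part of the selection, but it comes from the same spots and hybridisations as the Cy3 signal that was. A choice on Cy3 can therefore carry Cy5 along, so the shares below only describe the members. With limma on the log2 Cy5 signal and Benjamini-Hochberg adjustment over 32949 probes, 54 of the 123 members tested were called. They included 5 of the 65 tested from the 89. All 54 were higher at P5, against 1.85% of all probes. The other members had Cy5 well above background on fewer than 2 arrays and were not tested, including 20 with Cy5 well above background on no array. With the test limited to probes with Cy5 well above background on all 20 arrays, 27 of the 67 members tested were called, or 40.3% beside 3.80% of the 25317 probes tested. In Cy5 the P5 arrays were all above the P1 and adult arrays for 58 of the 150 members, against 0.833% of all probes.

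**Figure D1:**
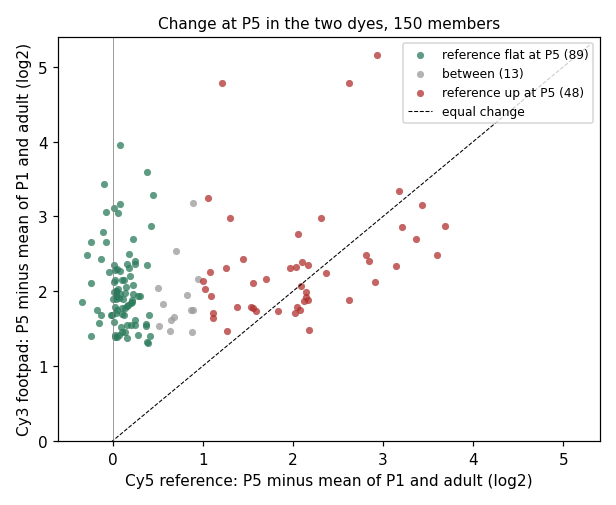
Each point is a member. The horizontal axis gives the Cy5 reference change and the vertical axis the Cy3 footpad change, both as P5 minus the mean of P1 and adult in log2, with colours for the 89 members with a level reference, the 13 between and the 48 with a raised reference. The 89 form a column near 0 on the horizontal axis, and the 48 spread along the line of equal change up to 3.69.

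Z00065301-1 had the largest Cy5 change. Its Cy5 level was 1.46, 0.65, 0.68 and 0.36 on the P5 arrays, -1.67, -4.30, -4.44 and -4.29 on those of P1, and -0.82, -2.63, -2.18 and -2.89 on those of adults, in the order WT then Tabby. The P5 arrays lay above all of P1 and adult. The change was 3.69 ± 0.668 (SE, limma, adjusted p = 0.00777). Its Cy3 level followed the same arrays, with 2.39, 1.96, 2.08 and 2.13 at P5 and 0.35, -1.90, -2.54 and -1.37 at P1. Across the 20 arrays, which share spot and hybridisation between the dyes, Cy3 and Cy5 of Z00065301-1 correlated with r = 0.96. Z00029142-1 had the next largest Cy5 change, 3.60 ± 0.762 (adjusted p = 0.0212, limma). At the other end, Z00060660-1 moved by -0.34 ± 0.123 in Cy5 (adjusted p = 0.206, limma), and Z00052618-1, with a change of -0.28, was well above background in Cy5 on no array.

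The arrays did not behave alike within a stage for the 48 members with a raised reference. Their median Cy3 level at P5 was 2.28 and 1.94 in WT and 2.04 and 2.07 in Tabby. At P1 it was 0.41 on the first WT array against -1.21, -1.34 and -1.04 on the others. In adults it was 0.93 on the first WT array, -1.27 on the second, and 0.28 and -0.38 in Tabby. The P3 arrays split as well, with 1.05 and -0.64 in WT and -1.02 and 0.58 in Tabby. Cy5 moved with Cy3 over these arrays: at P3 its medians were -1.05, -2.05, -2.63 and -1.60 in the same order. Over the 48, the median correlation between the dyes across 20 arrays was 0.90, against 0.42 over all probes. For the 89 members with a level reference it was 0.20. The members were chosen on Cy3 and the classes drawn on Cy5, both from the P1, P5 and adult arrays. How far these choices set the correlations was not tested, so the correlations only describe the classes. The Cy3 medians of the 89 kept within narrow bands, -1.23 to -0.99 at P1, 0.08 to 0.20 at P3, 0.40 to 0.57 at P5 and -1.70 to -1.59 in adults, and these bands did not overlap.

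**Figure D2:**
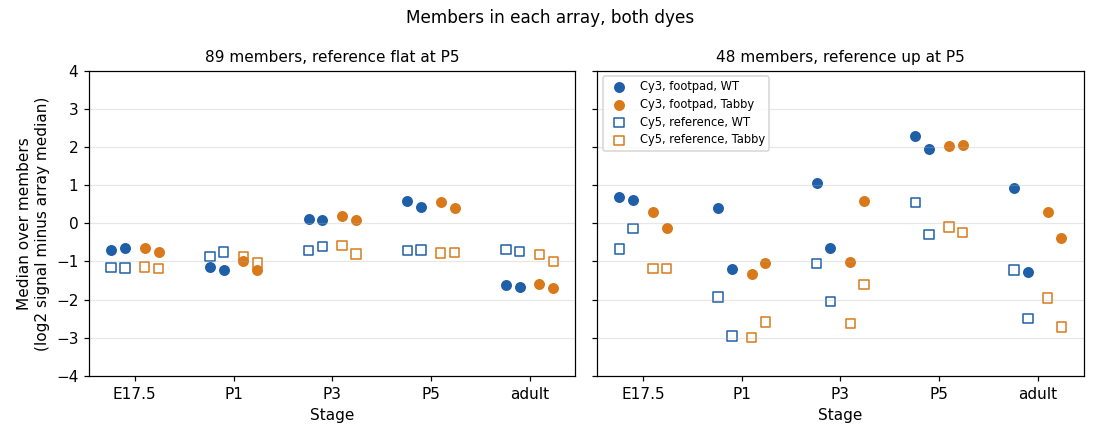
Median log2 signal of members on each array by stage, for the 89 members with a level reference (left) and the 48 with a raised reference (right). Filled circles are Cy3 footpad, open squares Cy5 reference, blue is WT and orange is Tabby. On the left the Cy3 medians of a stage sit together and Cy5 is level from P1 on, while on the right both dyes move together from array to array.

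A part of the 48 probes shared a stretch of letters. All hexamers were ranked by how far their share among the 48 exceeded their share among all probes, and the first 6 were the 6 rotations of CCCTAA, the telomere repeat unit, which overlap one another in any longer run. CTAACC stood in 16 of the 48, in 1 of the 89 with a level reference and in 0.945% of all probes. The seventh hexamer, AACCCC, stood in 7 of the 48. Counted as the longest exact run along the repeat, a run of 8 or more bases was found in 22 of the 48, in 0 of the 89 and in 0.348% of all probes. 1 of the 13 members between had one, which makes 23 of the 150. With a run of 6 or more the counts were 31 of 48, 7 of 89 and 4.77% of all probes. On the other strand, TTAGGG read in tandem, a run of 8 or more stood in 0 of the 48, 1 of the 89 and 0.202% of all probes. The search was made after the values were seen, and a match is a description of the letters and not of what bound there.

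Over all 42006 probes, larger P5 changes went with longer runs. The reference was higher by 1 or more for 0.795% of the 40003 probes with a run of 5 or fewer bases, 1.55% with 6, 2.66% with 7, 20.6% of 102 probes with 8 and 34.1% of 44 probes with 9 or more. The median Cy5 change of that last group was 0.52 and its median Cy3 change 0.72. These shares include the members, which are where the run was noticed. Without the 150 members the shares were 0.755%, 1.09%, 2.16%, 6.98% (6 of 86) and 21.6% (8 of 37) in the same order. Among those 37 probes the median Cy5 change was 0.48 and the median Cy3 change 0.66. For runs on the other strand the share without members stayed between 0% and 1.75%, and the median Cy5 change between -0.01 and 0.01. Median GC content was 43.3% both for the members and for all probes.

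**Figure D3:**
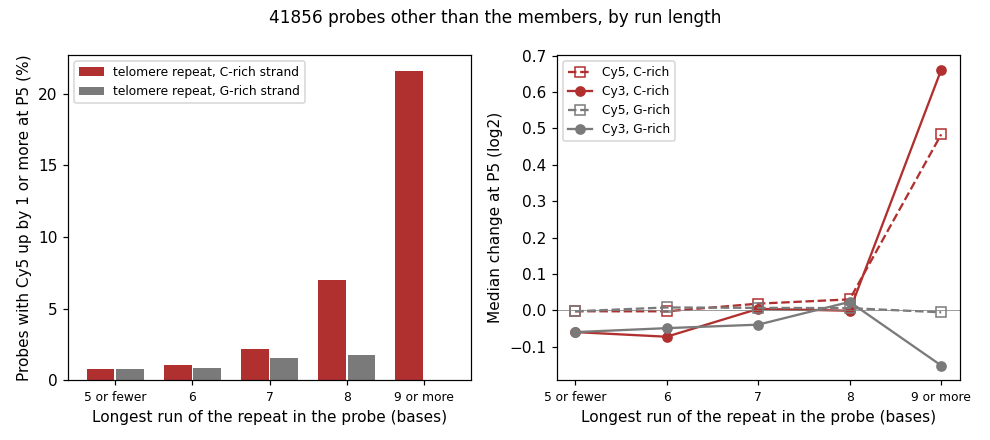
The 41856 probes that are not members, by the longest run of the telomere repeat in the probe, C-rich strand in red and G-rich strand in grey. Left, the percentage of probes whose Cy5 reference was higher by 1 or more at P5, which reaches 21.6% for C-rich runs of 9 or more. Right, the median log2 change at P5 in Cy3 (circles) and Cy5 (squares).

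The 23 members with a run of 8 or more changed at P5 by a median of 2.11 in Cy3, with a range of 1.47 to 3.16, and 2.14 in Cy5, with a range of 0.64 to 3.60. On the ratio of both dyes the change was 0.25 to 0.77. Z00047820-1, with a run of 8, had Cy3 levels of 1.75, 1.40, 1.49 and 1.11 at P5, -0.81, -3.28, -2.78 and -1.45 at P1 and -0.01, -2.37, -0.75 and -2.30 in adults. Its Cy5 levels were 0.64, 0.06, 0.05 and -0.63 at P5, -2.68, -4.83, -4.84 and -1.97 at P1 and -2.19, -4.16, -2.80 and -3.72 in adults. The P5 arrays were above all of P1 and adult in both dyes, and the first WT arrays of P1 and adult were the highest Cy3 arrays of their slides. In Cy5 the change was 3.43 ± 0.656 (SE, limma, adjusted p = 0.0114). Z00003132-1, with a run of 10, had Cy3 levels of 1.59 to 2.15 at P5, -2.05 to 0.47 at P1 and -1.58 to 1.18 in adults, and its Cy5 change was 2.82 ± 0.522 (adjusted p = 0.00913, limma). The part of the run in these changes was not tested.

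The other 26 members with a raised reference had no such run, and some of them kept a peak on the ratio scale. Their ratio change ran from 0.31 to 3.21. Z00053131-1 had a Cy5 change of 2.94, and its log2 ratio of footpad over reference was 3.53 to 4.34 at P5 against 0.63, 0.84, 1.28 and 1.64 at P1 and 0.21, 0.35, 1.31 and 0.51 in adults. The P5 ratios lay above all of P1 and adult, while P3, at 3.18 to 3.55, overlapped with the last of them. Z00059711-1 likewise had ratios of 2.71, 2.79, 2.57 and 3.53 at P5, while no array of P1 or adult passed 0.86. Z00027797-1 had the Cy5 rise with the smallest p among the members, 2.06 ± 0.0994 (SE, limma, adjusted p = 3.7e-07).

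On the ratio scale, 43 of the 150 members still met the thresholds of the selection, 33 of the 89 with a level reference and 7 of the 48 with a raised one. The offset of 50 in both dyes narrows the ratios of dim probes. Its part in these 3 counts was not tested. The P5 arrays were above all P1 and adult arrays in ratio for 115 of the 150, against 5.89% of all probes. The ratio contains the Cy3 values that chose the members, so nothing is read from this count. Among members with a level reference, the median ratio at P5 was 0.89 above P1 and 1.08 above adult.

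Z00064439-1 led this set. Its Cy3 level was 6.06, 5.93, 5.58 and 5.97 at P5, 5.92, 5.88, 5.64 and 5.66 at P3, and 4.01, 3.64, 4.56 and 3.92 at P1, in the order WT then Tabby. In adults it was 0.92, 0.58, 1.01 and 0.96. P3 and P5 overlapped, P1 lay below both, and adult lay far below all. The Cy5 level of Z00064439-1 stayed between 4.63 and 4.95 from P1 to adult, but was 5.46 to 5.58 at E17.5. Its ratio at P5 stood 1.88 above the higher of P1 and adult. Z00024453-1 held 5.61, 5.45, 5.22 and 5.34 at P5, 5.46, 5.25, 5.18 and 5.29 at P3, 3.20 to 3.49 at P1 and 2.48 to 2.76 in adults, with Cy5 between 2.81 and 3.31 on all 20 arrays. Again P3 and P5 overlapped, and both lay above the other stages. The Cy5 level of Z00024453-1 was called higher at P5, by 0.253 ± 0.0424 (SE, limma, adjusted p = 0.0046). That of Z00055102-1 was also called higher, by 0.385 ± 0.0834 (adjusted p = 0.0246, limma). Z00055102-1 and Z00076555-1 peaked at P5 with 2.94 to 3.10 and 1.31 to 1.72. At P3 they lay at 2.64 to 3.31 and 0.65 to 1.09. At E17.5 Z00076555-1 lay at -3.25 to -2.65, below its P1 arrays at -1.18 to -0.44. Z00076555-1 had Cy5 well above background on fewer than 2 arrays, so its level reference is only a signal near background.

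**Figure D4:**
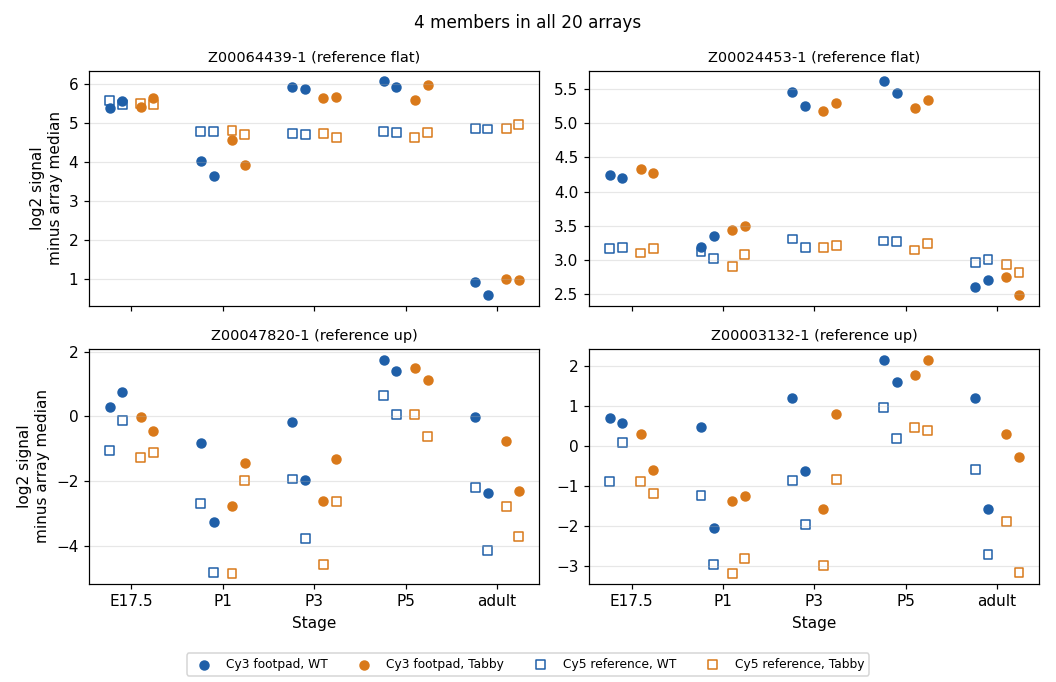
Log2 signal minus the array median on all 20 arrays for 4 members, Cy3 footpad as filled circles and Cy5 reference as open squares, WT in blue and Tabby in orange. In the upper pair Cy5 is nearly level from P1 on and the Cy3 arrays of P3 and P5 sit together; in the lower pair Cy5 moves with Cy3 and both are highest at P5.

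P3 and E17.5 were not used in the selection. At P3, 102 of the 150 members had covered at least 50% of the log2 distance from P1 to P5, 28 were above their P5 level and 3 were below P1. The members with a level reference were mostly near their P5 level by P3, with 80 of 89 past the halfway point. Among those with a raised reference 11 of 48 were past it, and 37 of 48 were at least 1 log2 unit lower at P3 than at P5. At E17.5, 98 of the 150 were at least 1 log2 unit below P5, 11 were at or above it, and 109 were above P1. A low P1 and a high P5 were part of the selection, so these counts only describe the members. On the ratio scale, the median over the members was 0.28 at E17.5 and 0.30 at P1.

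P3 minus E17.5 was tested on the log2 ratio with limma and Benjamini-Hochberg adjustment over 32121 probes. It called 94 of the 150 members higher at P3, where 36.7% of all probes were called higher, and 8 lower, where 28.4% were. The median difference was 0.50 among the members and 0.06 over all probes tested. The reference itself differed between these slides: Cy5 differed by at least 1 log2 unit between P3 and E17.5 for 66 of the 150 members and 24.1% of all probes, while 1.25% of all probes differed that much between P3 and P1. In Cy3 alone, 79 members were called higher at P3 and 5 lower, together 56% of the members beside 53.1% of all probes. 70 were called higher on both scales, none lower on both, and 4 had opposite calls. For all probes, Cy3 calls were not split by direction and joint calls were not counted. The Cy3 counts by direction and the joint counts therefore only describe the members.

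Z00037781-1 rose on both scales. Its Cy3 level was 1.72, 1.81, 1.85 and 1.49 at E17.5 and 4.79, 5.08, 5.08 and 5.26 at P3, with Cy5 between 3.16 and 3.64 on all 20 arrays. The 2 stages did not overlap, and the ratio differed by 2.84 ± 0.192 (SE, limma, adjusted p = 1.43e-08). Z00053131-1 was higher at P3 by 3.14 ± 0.188 (adjusted p = 4.53e-09, limma), and Z00023211-1 by 3.09 ± 0.276 (adjusted p = 2.45e-07, limma). With the scanner software's processed ratio the difference of Z00023211-1 was 0.42 and was not called. Its Cy5 level differed by 2.07 between the slides.

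Of the 3 members with the largest negative differences, Z00034770-1 differed most in the reference between these slides, with Cy5 4.69 higher at P3. Z00034770-1 was called lower at P3 by the ratio, by -1.15 ± 0.105 (adjusted p = 3.16e-07, limma). Its Cy5 level was -4.75, -4.87, -3.97 and -3.44 at E17.5 and 0.15 to 0.55 on the other 16 arrays. Its Cy3 level, -0.76 to -0.30 at E17.5 and -1.20 to -0.32 at P3, overlapped between the stages. Z00005218-1 and Z00003171-1 were lower by -0.78 ± 0.194 (adjusted p = 0.00284, limma) and -0.70 ± 0.181 (adjusted p = 0.00355, limma). In Cy3 alone both went the other way, by 1.13 and 1.00, and their Cy5 level was 0.56 and 0.66 higher at P3. These Cy5 differences were smaller than those in Cy3, and the processed ratio of both was also higher at P3.

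Tabby and WT were compared within each slide other than P5, on the log2 ratio over 32121 probes. No member was called at E17.5, P1 or P3 by limma with Benjamini-Hochberg adjustment, and few probes were: 0.0125% of all at E17.5, 0.0342% at P1 and 0.237% at P3. At an unadjusted p under 0.05 the members numbered 22, 5 and 8, of 150 each. These are 14.7%, 3.33% and 5.33%, beside 11.5%, 4.27% and 9.40% of all probes. At P1 all alternatives run also called 0. Without the first Tabby array, the test at E17.5 called 52 of the 148 members tested, or 35.1% beside 25.5% of all probes. That leaves the second Tabby array of E17.5 alone in its group, where it is assumed to vary like the other groups, and the spread between the 2 was the widest of all groups, with an SD of 0.425 against 0.114 to 0.309. At P3, other settings called between 0 and 8 members. The 8, with array weights, were 5.33% beside 9.7% of all probes. The median difference over the members, Tabby minus WT, was -0.12 at E17.5, 0.01 at P1 and -0.07 at P3.

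In adults, 9 of the 150 members were called, 5 higher and 4 lower in Tabby. That is 6% of the members, beside 6.15% of all probes, a share near the background. The count was 1 without the first WT adult array, 0.667% beside 2.51% of all probes. It was 19 without the second Tabby adult array, 12.7% beside 13.5%. Z00024821-1 had ratios of 0.02 and 0.07 in WT and 0.76 and 0.70 in Tabby adults, apart by 0.68 ± 0.091 (limma with its SE, adjusted p = 0.00028). Its P3 arrays held 0.22 and 0.30 in WT and 0.12 and 0.32 in Tabby, which overlapped. Z00074131-1 had ratios of 0.74 and 0.72 in WT adults and 2.11 and 2.53 in Tabby adults, a difference of 1.59 ± 0.32 (adjusted p = 0.00835, limma). Its Cy3 level at P5, 6.46 and 5.64 in WT and 6.83 and 6.16 in Tabby, overlapped. Z00005599-1 and Z00004158-1 were higher in Tabby adults by 0.82 ± 0.169 and 0.98 ± 0.232 (adjusted p = 0.00964 and 0.0228, limma). The 2 Tabby adult arrays of Z00004158-1 lay apart, at 1.95 and 1.14, and the call was lost without the first of them, with a difference of 0.57. It was lost in 5 of 12 alternatives, with adjusted p up to 0.278 (limma).

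Lower in Tabby adults were Z00071919-1, Z00025583-1 and Z00028257-1, beside Z00056777-1. Z00071919-1 had ratios of 1.41 and 0.81 in WT and 0.00 and 0.03 in Tabby. Tabby minus WT was -1.10 ± 0.292 (limma, adjusted p = 0.0417), a call lost in 5 of 12 alternatives, with adjusted p up to 0.345. At P3 its WT arrays held 2.37 and 2.56 and both Tabby arrays lay above them, from 2.69 up, with no call. Z00025583-1 had 1.52 and 1.51 in WT against 0.62 and 0.50 in Tabby, or -0.95 ± 0.211 (adjusted p = 0.0157, limma). Z00028257-1 was lower by -0.53 ± 0.141 (adjusted p = 0.0423, limma). That call was lost in 6 of 12 alternatives. Over all 12 the difference ranged from -2.28 to -0.38 and the adjusted p reached 0.35 (limma). For each of these members the WT and Tabby adult arrays did not overlap.

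**Figure D5:**
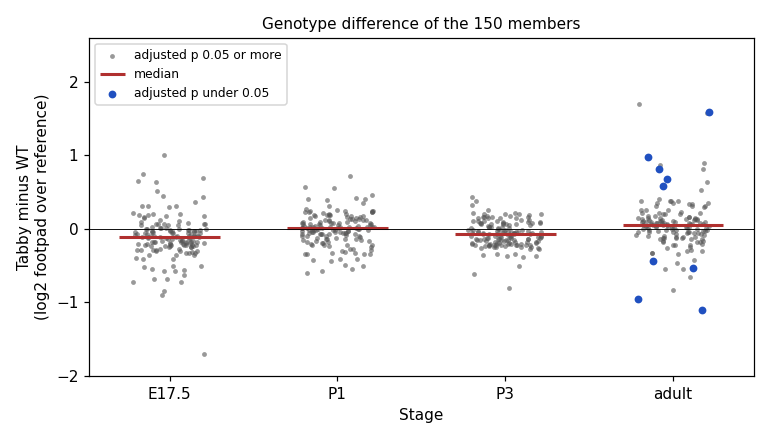
Tabby minus WT in log2 footpad over reference for the 150 members at the 4 stages not used for selection by genotype. Grey points were not called, blue points had an adjusted p under 0.05 by limma, and the red bar is the median. No point is blue at E17.5, P1 or P3, and 9 are blue in adults.

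The genotype effect in adults was set against that at P3 in the same model. It differed for 3 of the 150 members, 2% beside 2.41% of all probes, and at an unadjusted p under 0.05 for 21, 14% beside 13.8%. Z00004158-1 had ratios of 2.45 and 2.36 in WT and 1.61 and 1.59 in Tabby at P3, so that the Tabby arrays were lower there, without a call, and higher in adults. The effects differed by 1.78 ± 0.328 (SE, limma, adjusted p = 0.00864). For Z00024821-1 the difference was 0.72 ± 0.129 (adjusted p = 0.00676, limma) and for Z00061058-1 it was 0.76 ± 0.167 (adjusted p = 0.0278, limma).

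Some members share sequence. In 4 pairs of members the probes shared 35 to 55 bases, and their Cy3 levels correlated with r between 0.95 and 0.99 over the 20 arrays. One such pair is printed with the 52 shared bases in capitals, since a member of it was called in adults.
Z00028257-1: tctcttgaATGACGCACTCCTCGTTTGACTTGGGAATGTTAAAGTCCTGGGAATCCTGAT
Z00074431-1: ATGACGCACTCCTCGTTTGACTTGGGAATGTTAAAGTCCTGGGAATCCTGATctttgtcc

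The P5 level was 2.03 above P1 and 1.85 above adult for Z00028257-1, and 2.00 and 1.81 above them for Z00074431-1. Another overlapping pair, Z00058579-1 and Z00077847-1, lay in the class with a raised reference, with Cy5 changes of 1.83 and 2.02, and the telomere-repeat run of both lies within their 48 shared bases. Z00034770-1 shares 53 bases with Z00075128-1, whose P5 level was 1.48 above P1 but 0.60 above adult and so was not a member.

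Probes were set against RefSeq windows around gene starts only, and 1 member matched. Whether the other members lie elsewhere on the genome was not tested. Z00050622-1 matched, over all 60 bases, the RefSeq window from 250 bases before to 50 bases after the start of Ccdc33, a gene on the minus strand (GRCm38.p6, chr9:58102179-58102238). It reads in the sense of the gene and begins at position -13 from its start, so that it spans the annotated start site. Capitals mark its run of the telomere repeat.
Z00050622-1: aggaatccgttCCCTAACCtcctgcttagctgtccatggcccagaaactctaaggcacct

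The Cy3 level of Z00050622-1 was 1.66, 1.07, 1.37 and 1.56 at P5, 0.29, -1.22, -1.48 and -1.04 at P1, and 0.80, -0.48, 0.26 and 0.00 in adults. Its Cy5 change was 1.55 ± 0.275 (SE, limma, adjusted p = 0.00666), so this probe belongs to the class in which both dyes were higher at P5.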

How the data were processed

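Footpad RNA of 20 samples in 10 groups was measured on 2-colour Agilent arrays. Agilent Feature Extraction 9.5.1.1 made the spot values, per the file headers. The deposited array files give mean, background and processed signals as an intensity per dye, the last after background subtraction and dye normalization. The deposited value table of 25030 probes holds values on the log10 scale. Set against the array files, 64.4% of its rows followed footpad over reference plus a constant per probe, with an SD of the difference under 0.001. It served as an alternative.

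Members were found from the log2 processed Cy3 signal minus the array median, with spots of a probe averaged. The members and lists were chosen with earlier results of these data known. For the tests, mean signals were corrected with normexp (offset 50) and log ratios adjusted by loess (limma 3.58.1, R 4.3.3). 1 model with a coefficient per group covered 32121 probes with Cy3 well above background on at least 2 arrays, with two-sided tests, Benjamini-Hochberg adjustment and a threshold of 0.05. The number of arrays limits the precision, and p-values of the ratio tests measure the spread between these samples within a group. Since the arrays of a stage shared a slide, p-values between stages do not measure the spread between slides. The Cy5 tests set the same reference RNA against itself. Their p-values measure the spread between arrays within a slide, and not that between footpad samples. Tested on simulated data for Tabby minus WT at P3 (32121 probes, 200 changed), the fit found 53% of the changed probes at 1.5-fold, 82.5% at 2-fold and 99% at 4-fold. Tables used Python 3.11.15 and pandas 2.3.3.

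Probes named by rule were the 8 with the largest score, up to 3 called members per direction and test, the probes next to the limit and the extremes in Cy5. All others were picked for their sequence or after their values were seen. The gene and cell type marker lists planned were not used, since the files pair 0 probes with a gene, so the labelled tissue was not checked against markers. Bases were read from the array files and RefSeq windows (GRCm38.p6). Alternatives covered background, signals, channel, filter, array weights, the arrays in the fit and each array left out.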

Additional observations from a re-analysis of the deposited data

Results flagged for a closer look

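The genotype effect differed between adults and P3 for 3 members, by a test of the difference itself (limma, Benjamini-Hochberg over 32121 probes). The difference, adult minus P3 in log2 ratio, was 1.78 for Z00004158-1, 0.72 for Z00024821-1 and 0.76 for Z00061058-1. Z00061058-1 was no longer called under 10 of its 15 alternatives, with adjusted p between 0.00658 and 0.172 over all of them. The other 2 were called under all 16 of theirs.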

How the results depend on the processing

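Of the 150 members, 43 met the selection thresholds on the log2 ratio and 76 on the mean Cy3 signal with no background subtraction. On the ratio, 63 members were at least 1 lower at E17.5 than at P5. At E17.5 the deposited value table called 1 member, and leaving out 1 array gave 0 to 52. At P3 no background subtraction called 2, 1.33% beside 1.21% of all probes, and array weights 8, 5.33% beside 9.7%. Cy3 alone called 1 (0.667% beside 0.847%), as did the deposited table (1.03% beside 2.07%). Only the arrays of that stage also called 1 (0.667% beside 0.978%). In adults the counts were 19 with no background subtraction, 16 with the processed-signal ratio, 22 with Cy3 alone, 17 with the deposited table, 3 with array weights, 3 with only that stage and 1 to 19 with an array left out. For the genotype effect in adults minus P3 they were 14, 6, 9, 8, 6 and 6 in the same order, and 2 to 13 with an array left out. For Cy5, 27 of the 67 members tested were called with Cy5 well above background on all 20 arrays, 40.3% beside 3.8% of probes. P3 minus E17.5 reversed for Z00005218-1 (0.56 processed ratio, 1.13 Cy3 alone) and Z00003171-1 (0.33 and 1.00). The cause was not tested. Over 17 named results, 198 of 242 alternatives kept direction and call, 40 lost the call and 4 reversed.

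Replicate numbers did not pair the samples, with correlations of same-numbered deviations from -0.07 to 0.22. With the replicate block, the members called were 0, 0, 0 and 9 for genotype at E17.5, P1, P3 and adult. The 9 are 6% beside 6.005% of all probes. P3 minus E17.5 called 102 (68% beside 65.1%), adult minus P3 4 (2.67% beside 2.34%) and Cy5 55 of 123 (44.7% beside 3.46%). Z00028257-1 in adults was then not called (adjusted p = 0.0544, limma).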
